A study of Mus musculus with 10 samples.

Results

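The 9 core Hedgehog pathway genes described here were examined for the repressive histone mark H3K27me3 in fetal liver LT-HSCs, the long-term repopulating stem cells of blood. They were taken by gene symbol and comprised the ligands Shh, Ihh and Dhh, the receptor Ptch1, the ligand-binding antagonist Hhip, the signal transducer Smo and the transcription factors Gli1, Gli2 and Gli3. All 9 were found among the 21884 protein-coding genes of the annotation. The data came from CUT&Tag, in which an antibody directs a transposase to a chromatin protein so that sequenced fragments mark its position. LT-HSCs (LSK CD48-CD150+) were sorted from fetal liver of E14.5 mouse embryos that were either IκBα wild type (WT) or IκBα knockout (KO). IκBα is the NF-κB inhibitor encoded by Nfkbia, and the KO embryos came from matings of heterozygous carriers of a germline null allele, so the gene was lost in every cell of the embryo and not only in blood. The series held 10 samples, of which 6 were H3K27me3 libraries, 3 per genotype, and the other 4, which profiled IκBα itself, were not analysed here. Replicates 1 and 2 of each genotype were read at 75 bp and replicate 3 at 50 bp. The study's reporting summary calls the replicates independent, whereas its methods name fewer biological replicates per condition for the consensus peaks. Its figure legend for the same assay counts more embryos than libraries and fewer independent experiments than replicates. Which embryos and which experiment each library came from is not given in the sources used here.

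In Hedgehog signaling a secreted ligand binds Ptch1, which otherwise holds Smo inactive, and Smo then allows the Gli factors to act on target genes. Hhip and Ptch1 both sequester ligand at the cell surface, and Gli1 and Ptch1 are themselves transcriptional targets of the pathway, whereas Gli3 serves largely as a repressor when ligand is absent. The ligands are secreted patterning signals of the embryo: Shh acts in the neural tube and limb, Ihh in cartilage and gut, and Dhh in testis and peripheral nerve. H3K27me3 is deposited by Polycomb repressive complex 2 and is typically found over CpG-rich developmental genes that are silent in a given cell type.

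Libraries differed widely in how much was called. Peaks were called in each library as the strongest 0.5% of enriched blocks, so a gene without a peak had no block among these and need not have lacked the mark. The 75 bp libraries had between 4160 and 6013 peaks covering 18.2 to 27.8 Mb. WT replicate 3 stood apart with 1047 peaks over 1.90 Mb, and KO replicate 3 had 2325 peaks over 7.61 Mb. Counts and genotype differences are therefore also given for the 75 bp libraries alone. Nfkbia, the targeted gene, had 0 peaks in each of the 6 libraries, so the peaks give no check of the genotype. None of 12 genes that identify HSCs (such as Kit, Gata2, Runx1 and Meis1) had any peak over promoter or body. Of all genes, 17.5% had one in any library, so most genes had none. Of 12 genes of other lineages, 5 had promoter peaks in at least 5 libraries (Pax6, Sox1, Neurod1, Myod1 and Pax7), where 9.75% of all genes had one in at least 4. Alb, Afp, Hnf4a, Hbb-bt, Cdh5 and Pecam1 had 0, as the HSC genes did, so these counts give no check of the cell type.

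The Hedgehog genes carried the mark at most of their promoters in the libraries of 75 bp. The promoter window reached from 5 kb before to 100 bp after each annotated start site, and 1 shared base counted as a peak. In WT replicate 1, 7 of the 9 genes had a promoter peak, against 10.6% of all protein-coding genes. The count was 6 of 9 in WT replicate 2 (12.9% of all genes) and 1 of 9 in WT replicate 3 (3.46%). In the KO, 8 of 9 genes had a promoter peak in replicate 1 (12.9% of all genes) and 8 in replicate 2 (12.2%), but 3 in replicate 3 (8.07%). The counts were lowest in both replicate 3 libraries, which had the fewest peaks. Over all 6 libraries the counts of the genotypes overlapped, whereas within each same-numbered pair the KO count was the higher one (8 against 7, 8 against 6 and 3 against 1). Over all genes the KO share was higher in pairs 1 and 3 and lower in pair 2. In such pooled cells a mark carried by fewer cells and a weaker mark in all of them cannot be told apart. Over any of the 6 libraries, 8 of 9 promoters had a peak (15.8% of all genes), and the gene without one was Smo.

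A group of 5 genes was called in most libraries. Shh, Ihh, Dhh, Ptch1 and Gli1 had a promoter peak in at least 4 of 6 libraries (9.75% of all genes), and with gene bodies included Gli2 joined them, making 6 of 9 (11.1% of all genes). The same 5 genes had a peak at the promoter or body in all 4 libraries of 75 bp (10.2% of all genes). Gli1 was the 1 gene with a promoter peak in all 3 WT libraries (3.01% of all genes). Shh, Ihh and Ptch1 had a promoter peak in all 3 KO libraries (7.14% of all genes). With gene bodies included, 2 genes (Ihh and Gli1) were called in all 3 WT libraries (3.85% of all genes) and 5 (Shh, Ihh, Dhh, Ptch1 and Gli2) in all 3 KO libraries (8.22%). In the 75 bp libraries alone, 5 genes had a promoter peak in both WT libraries (9.75% of all genes) and 8 in both KO libraries (10.8%). With gene bodies the counts were again 5 (11.3% of all genes) and 8 (12.4%). A peak at the promoter or body in any library was found for 8 of 9 genes (17.5% of all genes).

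**Figure D1:**
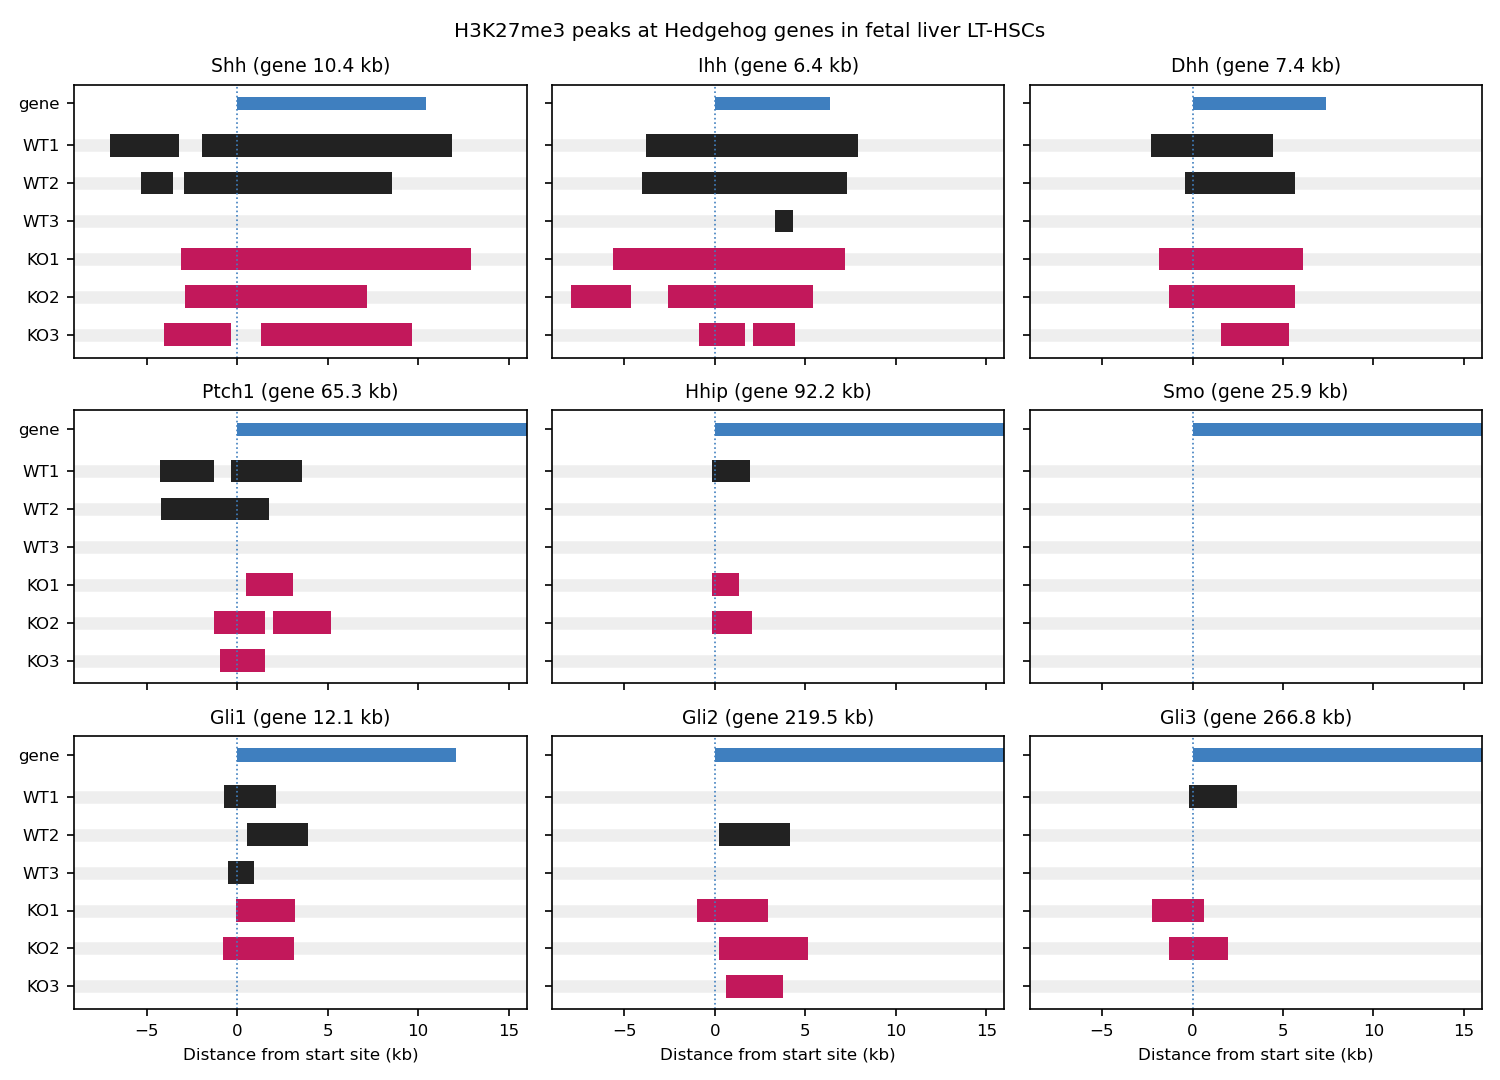
H3K27me3 peaks (bars) of each library at the 9 Hedgehog genes, by distance in kb from the most upstream annotated start site in the direction of transcription, with WT1 to WT3 and KO1 to KO3 standing for replicates 1 to 3 of each genotype and the blue bar for the gene (drawn up to the edge of the window). Peaks over Shh, Ihh and Dhh ran along the gene, those at Ptch1, Hhip, Gli1, Gli2 and Gli3 lay around the start, and Smo had 0 peaks.

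At the 3 ligand genes, peaks ran over much of the gene in the 75 bp libraries. Shh (ENSMUSG00000002633.4, chr5:28456815-28467256, minus strand, GRCm38) spans 10.4 kb, Ihh (ENSMUSG00000006538.12, chr1:74945315-74951672, minus strand) 6.36 kb and Dhh (ENSMUSG00000023000.5, chr15:98891152-98898540, minus strand) 7.39 kb. The RefSeq promoter table for GRCm38.p6 matched 7 of the 9 genes by symbol, and those of Shh and Gli1 were not analysed here. The 250 bases before the RefSeq start of Ihh (chr1:74951673-74951922) and Dhh (chr15:98898541-98898790) are shown 5′ to 3′ on the gene's strand because they lie under ligand peaks and differ in CpG content, with each CpG dinucleotide in capitals.
Ihh: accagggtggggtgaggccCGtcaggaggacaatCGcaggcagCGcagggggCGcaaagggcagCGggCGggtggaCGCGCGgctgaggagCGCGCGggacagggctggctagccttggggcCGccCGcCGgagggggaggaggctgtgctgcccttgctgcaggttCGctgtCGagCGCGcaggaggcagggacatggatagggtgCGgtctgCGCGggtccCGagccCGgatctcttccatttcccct
Dhh: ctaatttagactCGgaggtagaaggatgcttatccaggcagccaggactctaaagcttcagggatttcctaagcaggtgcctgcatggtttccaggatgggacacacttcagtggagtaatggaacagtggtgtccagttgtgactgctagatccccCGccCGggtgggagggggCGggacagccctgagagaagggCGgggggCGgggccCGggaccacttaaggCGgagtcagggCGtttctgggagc
The Ihh stretch held 24 CpG dinucleotides, at percentile 85.8 of 20145 coding promoters of the table, and lay under a peak in 5 of 6 libraries. That of Dhh held 9, near the median of 10 over all coding promoters, and lay under a peak in 4 of 6 libraries.

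Peaks covered 92.0%, 83.5% and 0% of the Shh promoter and gene body in WT replicates 1, 2 and 3. The corresponding shares in the KO were 87.8%, 65.1% and 78.1%. All libraries but WT replicate 3 therefore had most of Shh under peaks, and the KO values lay within the range of the WT. The widest Shh peak measured 13860 bp in WT replicate 1 and 11465 bp in WT replicate 2. In KO replicates 1, 2 and 3 it measured 16050, 10054 and 8340 bp. Each of these was among the widest peaks of its library (width percentiles 95.3 to 98.4). In WT replicate 1 this peak ran from -1.97 to 11.9 kb relative to the start, past the end of the gene. In KO replicate 3 the domain was split, with peaks ending at -0.352 kb and beginning at 1.31 kb relative to the start, so that the start site itself was not covered. Peaks at the Shh promoter also overlapped the noncoding genes 9530036O11Rik and Gm26894, whose share of the mark cannot be told apart from that of Shh.

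Ihh was the 1 Hedgehog gene with a peak at promoter or body in all 6 libraries (3.48% of all genes). Its promoter and body were covered to 89.5%, 91.4% and 8.68% in WT replicates 1, 2 and 3. In KO replicates 1, 2 and 3 the shares were 100%, 73.5% and 42.8%. Both replicate 3 libraries were the lowest of their genotype. Peaks spanned 11.7 and 11.3 kb at Ihh in WT replicates 1 and 2 and up to 12.8 kb in KO replicate 1, where the peak reached from -5.61 to 7.21 kb relative to the start. The single Ihh peak of WT replicate 3 was 0.986 kb wide, lay 3.32 to 4.30 kb inside the gene and was narrower than most of its library (width percentile 3.34).

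Dhh was covered to a smaller share, with 54.7%, 49.3% and 0% in WT replicates 1, 2 and 3. The KO libraries had 64.1%, 56.1% and 30.4% of its promoter and body covered. The KO values of replicates 1 and 2 were both above the WT values, but KO replicate 3 was below WT replicates 1 and 2. Each called library had a single Dhh peak of 3.77 to 7.94 kb, with width percentiles of 74.8 to 88.0 in its library. The Dhh peak of KO replicate 1 reached a maximum signal of 20 overlapping fragments, at percentile 99.8 of that library, whereas the maximum was 8 in KO replicate 3 and 11 to 14 in the other libraries. In KO replicate 3 the peak lay within the gene, 1.56 to 5.33 kb from the start, and did not touch the promoter. All Dhh peaks also overlapped the neighbouring gene Rhebl1, so the covered length of the 2 genes is not independent.

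The covered share of the ligand gene bodies was set against other genes. At least 50% of the gene body was under peaks in all 4 libraries of 75 bp for 3 of 9 Hedgehog genes, the 3 ligands, a threshold chosen after these values were seen. Over all protein-coding genes this share was 1.62%. Among the 2625 genes whose length lay within that of the ligands it was 2.29%, and among the 212 of these that had a peak in all 4 libraries it was 28.3%. The covered share depends by construction on gene length, since peaks of a few kb fill a short gene and only the start of a long one.

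**Figure D2:**
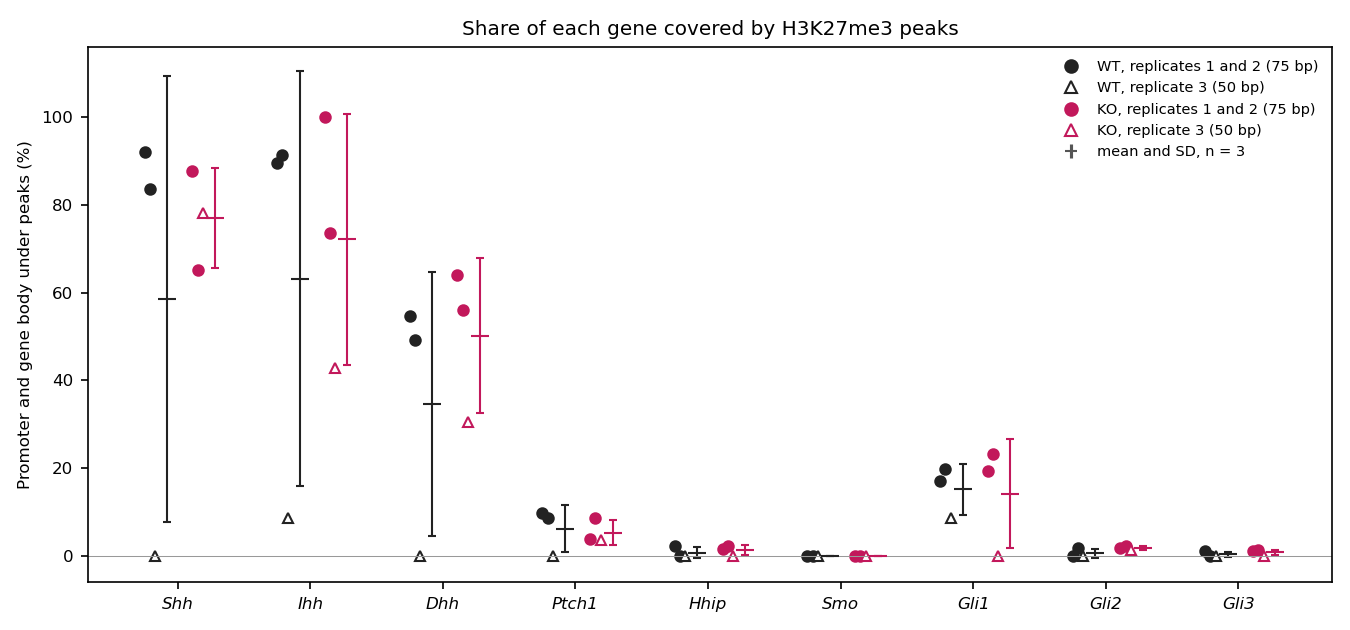
Percent of each gene's promoter and body under H3K27me3 peaks, with 1 point per library (circles 75 bp, triangles 50 bp; black WT, red KO) and the mean with SD (n = 3) beside the points. The ligands lay between 49.3% and 100% in the 75 bp libraries, Gli1 between 17.1% and 23.1%, and Hhip, Gli2 and Gli3 below 3%.

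Ptch1, Hhip and Smo act at the membrane, where Ptch1 binds ligand, Hhip competes for it and Smo passes the signal on. Ptch1 (ENSMUSG00000021466.12, chr13:63508328-63573598, minus strand) and Hhip (ENSMUSG00000064325.4, chr8:79965851-80058006, minus strand) had peaks near the start, and Smo (ENSMUSG00000001761.7, chr6:29735503-29761365, plus strand) had none in any library. The 250 bases before the RefSeq start of Ptch1 (chr13:63565736-63565985), Hhip (chr8:80058009-80058258) and Smo (chr6:29735247-29735496) are shown because they differ in CpG content and in whether a peak lay over them, again with each CpG in capitals.
Ptch1: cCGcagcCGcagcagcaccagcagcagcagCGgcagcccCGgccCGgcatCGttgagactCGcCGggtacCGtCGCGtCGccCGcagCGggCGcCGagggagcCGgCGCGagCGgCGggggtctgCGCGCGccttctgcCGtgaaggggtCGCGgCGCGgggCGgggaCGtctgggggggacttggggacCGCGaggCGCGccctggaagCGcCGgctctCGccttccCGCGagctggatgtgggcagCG
Hhip: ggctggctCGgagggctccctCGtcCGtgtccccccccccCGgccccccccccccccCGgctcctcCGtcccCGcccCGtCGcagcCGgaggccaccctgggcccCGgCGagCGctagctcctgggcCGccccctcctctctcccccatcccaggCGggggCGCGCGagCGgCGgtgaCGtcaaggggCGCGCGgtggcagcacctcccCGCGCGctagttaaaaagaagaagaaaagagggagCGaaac
Smo: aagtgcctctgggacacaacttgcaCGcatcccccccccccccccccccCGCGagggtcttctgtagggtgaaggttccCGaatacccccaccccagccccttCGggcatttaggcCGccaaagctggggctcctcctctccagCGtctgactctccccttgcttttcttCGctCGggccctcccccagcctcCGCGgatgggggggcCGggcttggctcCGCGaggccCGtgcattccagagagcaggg
The Ptch1 stretch was the most CpG-rich of the 7, with 41 CpG dinucleotides (percentile 98.9 among coding promoters), yet lay under a peak in 0 of 6 libraries. Hhip had 28 (percentile 91.0) and a peak in 3 libraries. Smo had 15 (percentile 64.7) and a peak in none.

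The Ptch1 peaks lay elsewhere in the same gene. Ptch1 has several annotated starts, and the peaks gathered around the most upstream of them, 7.86 kb before the RefSeq start. In WT replicate 1, peaks reached from -4.28 to 3.61 kb relative to that upstream start, and in WT replicate 2 from -4.24 to 1.74 kb. The KO peaks reached from 0.5 to 3.11 kb in replicate 1, from -1.27 to 5.16 kb in replicate 2 (as a pair of peaks) and from -0.955 to 1.55 kb in replicate 3. No peak came closer to the RefSeq start than 2.71 kb (KO replicate 2), and in the other 4 libraries with a peak the distance was 4.26 to 6.31 kb. The mark at Ptch1 was thus confined, among peaks called in these libraries, to the upstream start and its flanks.

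Peaks covered 6.93, 5.98 and 0 kb of Ptch1 in WT replicates 1, 2 and 3. In the KO they covered 2.61, 6.02 and 2.51 kb. The lowest 75 bp value was that of KO replicate 1 and the other 75 bp values lay close together. At Hhip, peaks covered 2.08 kb in WT replicate 1, 1.52 kb in KO replicate 1 and 2.19 kb in KO replicate 2, and the other 3 libraries had none. All Hhip peaks began between -0.163 and -0.141 kb from the start and were among the narrowest of their libraries (width percentiles 1.12 to 8.40). The Hhip peak of KO replicate 1 was nevertheless dense, with a mean coverage of 5.56 fragments per base, the highest of all peaks at the 9 genes.

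The Gli factors, the transcriptional end of the pathway, had peaks around their start sites. Gli1 (ENSMUSG00000025407.7, chr10:127329882-127341974, minus strand) is 12.1 kb long, whereas Gli2 (ENSMUSG00000048402.14, chr1:118834132-119053619, minus strand) and Gli3 (ENSMUSG00000021318.15, chr13:15463235-15730026, plus strand) span 219 and 267 kb. Peaks covered 2.92, 3.38 and 1.47 kb of Gli1 in WT replicates 1, 2 and 3 and 3.29, 3.96 and 0 kb in the KO. Gli1 was therefore the 1 gene called in WT replicate 3 and not in KO replicate 3. The Gli1 peak of WT replicate 3 had a total signal of 4068, above the smallest called in that library (3344) but below the smallest called in KO replicate 3 (6711).

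Gli2 had no peak in WT replicates 1 and 3 and 3.94 kb under peaks in WT replicate 2, against 3.93, 4.93 and 3.16 kb in KO replicates 1, 2 and 3. All KO libraries had a Gli2 peak and 1 WT library did, but the value of WT replicate 2 lay within the KO range. The Gli2 peaks of WT replicate 2 and KO replicates 2 and 3 began 0.209 to 0.619 kb downstream of the upstream start, and the peak of KO replicate 1 alone reached upstream of it. Gli3 had 2.68 kb under a peak in WT replicate 1, 2.89 kb in KO replicate 1 and 3.30 kb in KO replicate 2, and no peak in the other 3 libraries. At Gli2 and Gli3 the mark was called over a few kb at the 5′ end, and the remainder of each gene had none.

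Across the 9 genes, the covered share in the 4 libraries of 75 bp gave the following order of levels. Ihh (88.6% ± 11.0, SD, n = 4, with 2 WT and 2 KO libraries) and Shh (82.1% ± 11.8) had ranges that overlapped. Within libraries, Ihh was above Shh in WT replicate 2 and KO replicates 1 and 2, and Shh was above Ihh in WT replicate 1. Dhh followed with 56.0% ± 6.11, and its highest library (64.1%) lay just below the lowest of Shh (65.1%). Gli1 (19.8% ± 2.51) and Ptch1 (7.66% ± 2.71) came next, with ranges that did not overlap. Hhip (1.49% ± 1.04), Gli2 (1.42% ± 0.972) and Gli3 (0.815% ± 0.551) had ranges that overlapped, and Smo was at 0 in each library. By length in kb rather than share, Gli1, Gli2 and Gli3 were close to one another where called, with peaks of 1.47 to 4.93 kb. The order also changed by length, since the share falls with gene length. Ptch1 had 6.93, 5.98, 2.61 and 6.02 kb in WT replicates 1 and 2 and KO replicates 1 and 2. Gli1 had 2.92, 3.38, 3.29 and 3.96 kb, above Ptch1 in KO replicate 1 alone. Where called at 75 bp, Gli2 had 3.93 to 4.93 kb and Hhip 1.52 to 2.19 kb.

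**Figure D3:**
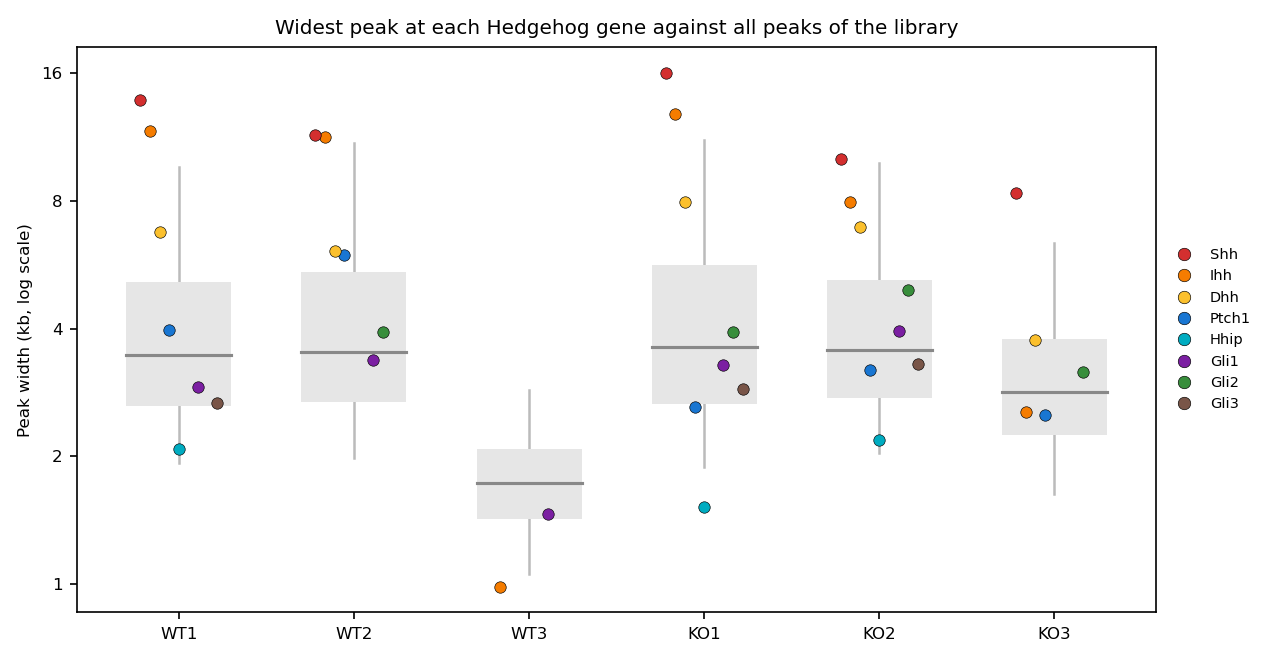
Width in kb (log axis) of the widest H3K27me3 peak at each Hedgehog gene in each library (points), over the width of all peaks of that library (line, median; box, 25th to 75th percentile; whiskers, 5th to 95th percentile). Shh lay above the 95th percentile in every library where it was called, and Hhip lay below the box in each library where it was called.

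Total signal of a peak is the sum of fragment coverage over it and is not scaled to depth. It was summed over all peaks at a gene and divided by the median total of a single peak in the same library, so that a gene with a pair of peaks is counted with both. Pairs of peaks lay at Shh in WT replicates 1 and 2 and KO replicate 3, at Ihh in KO replicates 2 and 3 and at Ptch1 in WT replicate 1 and KO replicate 2. WT replicate 3 had no peak, and so no ratio, at Shh, Dhh and Ptch1. At Shh the sum was 4.67 and 4.46 times the median peak in WT replicates 1 and 2 and 5.56, 3.37 and 3.78 times in KO replicates 1, 2 and 3. The corresponding ratios at Ihh were 4.08, 4.69 and 0.794 in the WT and 4.63, 4.02 and 1.64 in the KO. Dhh stood at 2.33 in WT replicate 1 and 1.99 in WT replicate 2, against 2.77, 2.76 and 1.03 in the KO. The summed signal of each ligand was thus above that of the median peak in all 75 bp libraries, with KO and WT ranges that overlapped for Shh and Ihh among libraries with a peak. For Dhh, KO replicates 1 and 2 were above WT replicates 1 and 2 and KO replicate 3 was below them.

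Ptch1 lay at 2.46 and 1.57 in WT replicates 1 and 2 and at 0.699, 1.5 and 1.0 in the KO, with the values of WT replicate 1 and KO replicate 2 each adding a pair of peaks. Gli1 ranged from 0.691 to 1.12 in the 5 libraries with a peak, Gli2 from 0.901 to 1.70 in 4, Gli3 from 0.642 to 0.855 in 3 and Hhip from 0.551 to 0.728 in 3. Outside the ligands and Ptch1, total signal was thus mostly near or below that of the median peak. The highest fragment coverage at Gli1, Gli2, Gli3 and Hhip was 5 to 11 fragments, against library medians of 6 to 10, which limits the precision of any single value.

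The comparison of genotypes asked whether loss of IκBα altered the mark at these genes. No Hedgehog gene had a covered length in all 3 KO libraries above all 3 WT libraries, as 1.59% of the 3837 genes with a peak did. None was below all WT libraries either (0.0782% of these genes). Shh had 9.03 ± 7.85 kb under peaks in the WT and 11.9 ± 1.76 kb in the KO (SD, n = 3 each), a difference of 2.85 kb (exact permutation test, two-sided, p = 0.9). The difference was 1.01 kb for Ihh, from 7.18 ± 5.36 to 8.19 ± 3.25 kb (exact permutation test, p = 0.8), and 1.93 kb for Dhh, from 4.29 ± 3.73 to 6.22 ± 2.18 kb (exact permutation test, p = 0.5). Each of these differences was less than the standard deviation of the WT.

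For Ptch1 the WT had 4.30 ± 3.76 kb and the KO 3.71 ± 2.00 kb, so that the KO mean was lower by a difference of -0.593 kb (exact permutation test, p = 0.9). Hhip went from 0.692 ± 1.2 to 1.24 ± 1.12 kb (exact permutation test, p = 0.7) and Gli1 from 2.59 ± 0.997 to 2.42 ± 2.12 kb (exact permutation test, p = 0.9). At Gli2 the means were furthest apart relative to their spread, with 1.31 ± 2.27 kb in the WT and 4.003 ± 0.888 kb in the KO, a difference of 2.69 kb (exact permutation test, p = 0.3). Gli3 had 0.892 ± 1.54 kb in the WT and 2.06 ± 1.80 kb in the KO (exact permutation test, p = 0.4). Within same-numbered pairs, the covered length was higher in the KO in 3 of 3 pairs for 2 of the 9 genes, Dhh and Gli2 (12.2% of the 3837 genes), and lower in 3 of 3 pairs for 0 (0.808%). With 3 libraries against 3 no p-value below 0.1 was possible, and after adjustment over all 3837 genes each was 1.0.

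Within read lengths the differences took other values, WT replicate 3 being the lowest WT library at all genes called in more than 1 WT library. In the 75 bp libraries, with 2 per genotype, the KO minus WT difference was -1.75 kb for Shh, -0.419 kb for Ihh, 1.01 kb for Dhh, -2.14 kb for Ptch1, 0.816 kb for Hhip, 0.477 kb for Gli1, 2.46 kb for Gli2 and 1.75 kb for Gli3. The sign of the Shh, Ihh and Gli1 differences was therefore opposite to that over all 6 libraries. Dhh and Gli3 had both KO values above both WT values (15.7% of 3815 genes), and no Hedgehog gene had both below (9.86%). In the 50 bp libraries, with 1 per genotype and no test, Shh, Dhh, Ptch1 and Gli2 had 12.1, 3.77, 2.51 and 3.16 kb in the KO and 0 kb in the WT, where fewer peaks were called over the whole genome. Ihh had 4.86 kb in the KO and 0.986 kb in the WT, Gli1 had 0 kb in the KO and 1.47 kb in the WT, and Hhip and Gli3 had 0 kb in both.

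Signal was compared at merged regions with limma on log2 total signal, centred on each library's median. Of 717 regions called in all 6 libraries, 1 held a Hedgehog gene, that of Ihh (chr1:74943758-74961121). This region ends past the last peak that touched the Ihh promoter or body (ending at chr1:74959601), so it also holds a peak outside them. The total signal of the whole region was 1.89, 2.04 and 0.731 times that of the median region in WT replicates 1, 2 and 3. In the KO it was 1.77, 1.71 and 1.07 times the median region, within the range of the WT. On the log2 scale the KO minus WT difference was 0.06 ± 0.44 (SE; 95% interval -0.91 to 1.03; limma, adjusted p = 0.992). No region passed an adjusted p of 0.05 (0% of 717), and 8 regions were below 0.05 unadjusted, 4 higher and 4 lower in the KO.

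In the 75 bp libraries alone, 2554 regions were called in all 4 and 5 of them held Hedgehog genes. The log2 difference was -0.17 ± 0.31 at Ihh, -0.13 ± 0.33 at Shh, 0.34 ± 0.34 at Dhh and 0.38 ± 0.34 at Gli1 (SE, limma, adjusted p of 0.998 or 0.999). Ptch1 differed most, by -0.97 ± 0.51 (95% interval -2.16 to 0.23; limma, unadjusted p = 0.0978, adjusted p = 0.994), which lay outside the range from the 5th to the 95th percentile of all regions (-0.72 to 0.69). WT replicate 1 had 1.14 times and WT replicate 2 had 0.579 times the signal of the median of the 717 regions called in all 6 libraries, against 0.267 times in KO replicate 1 and 0.638 times in KO replicate 2. KO replicate 2 was thus above WT replicate 2. In fits added after these values were seen, the log2 difference was -0.38 without KO replicate 1, -0.46 without WT replicate 1, -1.48 without WT replicate 2 and -1.55 without KO replicate 2 (limma, adjusted p of 0.738 to 0.998, the lone library being assumed to vary like the others). Again 0% of regions passed the adjusted threshold, and 119 were below 0.05 unadjusted, 45 higher and 74 lower in the KO.

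To include the remaining genes, regions called in at least 3 libraries were fitted with each uncalled library set to the smallest total signal it had called. The 8 Hedgehog genes other than Smo then had log2 differences between -0.70 ± 0.48 at Ptch1 and 0.50 ± 0.48 at Shh, with 0.45 ± 0.48 at Gli2 (SE, limma, adjusted p = 0.997 for each). The 5th to 95th percentile of all regions ran from -0.75 to 0.46 (median -0.16), so Shh lay just outside it and Ptch1 inside. Of 3624 regions, 0% passed the adjusted threshold, and 56 were below 0.05 unadjusted, 4 higher and 52 lower in the KO. Without filled values, the split was 4 higher and 4 lower of 717 regions, and 45 higher and 74 lower of 2554 in the 75 bp libraries. Every 95% interval included 0, and these differences depend on the value given to uncalled regions. For WT replicate 3, with the fewest peaks, this value (3344) was large relative to the library's median region. A Gli1 peak of 4068 was 0.871 times that median there, whereas a Gli1 peak of 8535 was 0.320 times it in WT replicate 1. By construction, a region uncalled in WT replicate 3 was therefore given a relatively high WT value, which moved KO minus WT down.

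**Figure D4:**
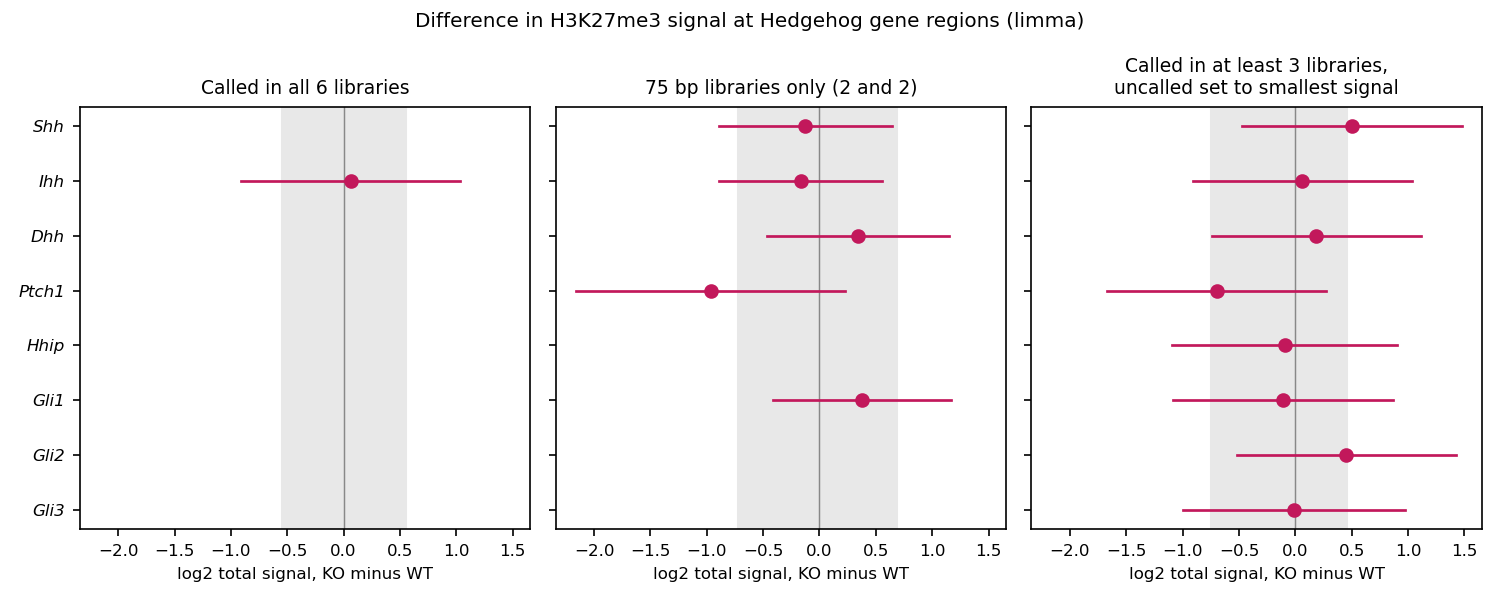
KO minus WT difference in log2 total signal (points, limma estimate; lines, 95% interval) at regions of the Hedgehog genes in 3 fits, with the 5th to 95th percentile of all regions shaded. Every interval crosses 0, and Ptch1 had the lowest estimate in the 75 bp libraries (-0.97).

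Other components of the pathway were examined in the same windows. Of 26, 6 had a promoter peak in at least 4 of 6 libraries, where 9.75% of all genes did. These were the co-receptors Gas1 and Lrp2, the ligand-release factors Scube1, Scube2 and Scube3, and Disp3, a relative of the ligand transporter Disp1. Gas1 had 2.57, 3.76 and 0.877 kb under peaks in the WT and 1.89, 2.78 and 2.68 kb in the KO. A promoter peak in at least 1 library was found for 12 of the 26 (15.8% of all genes). Those without one included the Gli regulators Sufu, Spop, Stk36, Gsk3b, Csnk1a1 and Prkaca, the ciliary regulators Gpr161 and Tulp3, the co-receptor Cdon and the ligand transporter Disp1. By library, 7, 10 and 2 of the 26 genes had a promoter peak in the WT (10.6%, 12.9% and 3.46% of all genes). In the KO, 8, 9 and 5 did (12.9%, 12.2% and 8.07%).

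Of 22 genes known as Hedgehog targets in embryonic tissues, 16 had a promoter peak in at least 4 libraries (9.75% of all genes). Foxf1, Nkx2-2, Nkx6-1, Olig2, Tbx2, Bmp4, Grem1, Osr2 and Sfrp1 had one in all 6 (2.65% of all genes). Foxf1, a transcription factor of gut mesenchyme, was covered to 100%, 99.9% and 18.3% in the WT and to 100%, 100% and 21.7% in the KO. Mycn, Ccnd1, Ccnd2, Bcl2 and Cdk6, targets that act in cell division and survival, had no peak in any library. Most genes had none either, as 17.5% of all genes had a peak at promoter or body in any library. By library, 15, 17 and 9 of the 22 had a promoter peak in the WT (10.6%, 12.9% and 3.46% of all genes). In the KO, 17, 17 and 14 did (12.9%, 12.2% and 8.07%). Among 8 zinc finger genes related to the Gli factors, 6 had a promoter peak in at least 4 libraries (9.75% of all genes). Glis1, Zic2 and Zic5 had one in all 6 (2.65% of all genes), while Glis2 had none. No gene of these lists had a covered length in all KO libraries above or below all WT libraries (1.59% and 0.0782% of the 3837 genes with a peak).

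**Figure D5:**
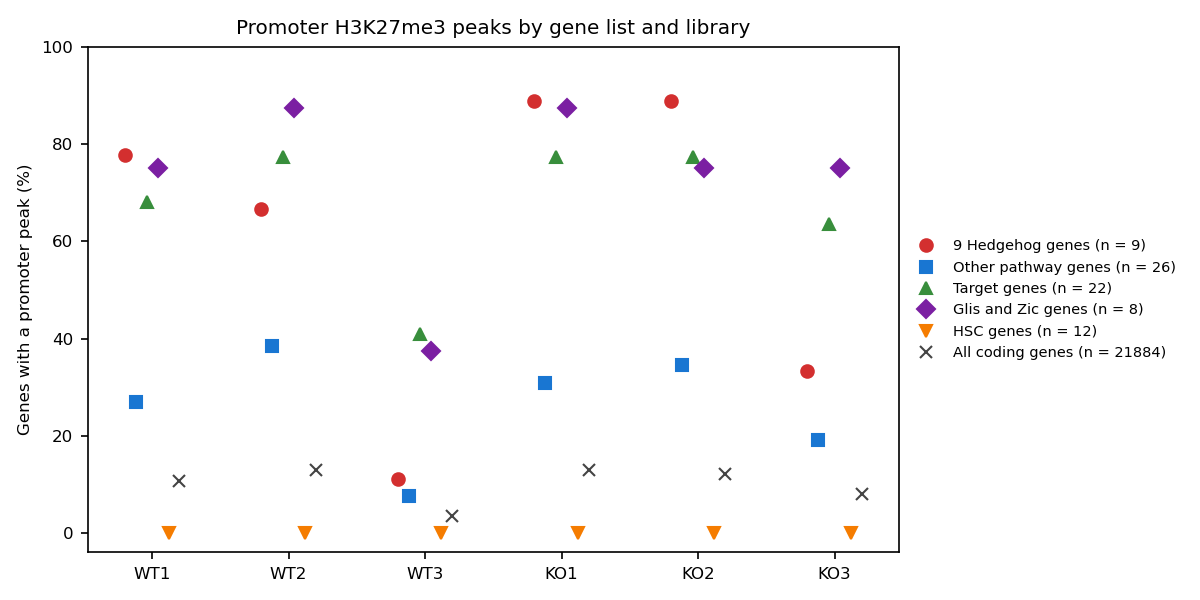
Percent of genes with a promoter H3K27me3 peak in each library for the 9 Hedgehog genes, 26 other pathway genes, 22 target genes, 8 Glis and Zic genes, 12 HSC genes and all 21884 protein-coding genes. Every list but the HSC genes lay above all genes in every library, and each of these lists was lowest in WT replicate 3.

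Sequence before the start sites was described for the 7 genes with a RefSeq promoter. Gli2 had 22 CpG dinucleotides in 250 bases (percentile 82.1) with a peak over them in 1 library, and Gli3 had 34 (percentile 96.1) with a peak in 3. The observed over expected CpG ratio was 1.13 for Gli3, 1.08 for Ptch1, 0.798 for Hhip, 0.783 for Ihh, 0.780 for Gli2, 0.535 for Smo and 0.432 for Dhh, against a median of 0.551 over all coding promoters. The number of libraries with a peak did not follow this order, as Dhh with the lowest ratio had 4 and Ptch1 had 0. The Gli binding motif GACCACCCA, searched on both strands, was in 0 of the 7 stretches and in 0.169% of coding promoters of the same length, which says only that these letters were not in this window.

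Genes with the most similar covered length over the 6 libraries were found by the root mean square difference in kb. For Shh these were Scarf2 (1.21 kb), Espn (1.44 kb) and Arhgef19 (1.51 kb), and for Ihh Prrxl1 (0.731 kb), Cabp7 (0.849 kb) and Camk2n1 (0.877 kb). Dhh was most like Hunk (0.554 kb), Fzd10 (0.630 kb) and Rhebl1 (0.647 kb), the last of which shares its peaks. Among the genes near Ptch1 were Lypd1 (0.861 kb) and Fam20c (0.870 kb). Gli1 came closest to Dph1 (0.311 kb), Atp8b1 (0.346 kb) and Trpc1 (0.371 kb), and Gli2 to Crip2 (0.491 kb), Tpm1 (0.492 kb) and Itpka (0.572 kb). These are descriptions over 6 libraries, and all genes of a library share its depth.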

How the data were processed

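H3K27me3 was measured by CUT&Tag in 3 WT and 3 KO libraries of LT-HSCs, grouped by their labels. The authors trimmed reads (Trim Galore 0.6.6), aligned them to GRCm38 (Bowtie2 2.4.4), removed duplicates and poorly or multiply mapped reads, and called peaks in each library with SEACR 1.3 (stringent, no IgG, top 0.5%). Blacklisted regions were removed, with the list not given in the sources used here. The deposited signal values, the total and the maximum fragment coverage of each peak, were not scaled to depth. Depth and background can both move the number of peaks, their width and their signal, which was not tested. Read totals were not used.

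Peaks were intersected with GENCODE M21 gene models on GRCm38, leaving out 54 coding genes with duplicated symbols, in Python 3.11.15 (numpy 2.4.6, pandas 2.3.3, scipy 1.17.1). Genotypes were compared in covered length by the exact two-sided permutation test (20 assignments of libraries), with Benjamini-Hochberg adjustment over 3837 genes. Total signal of merged regions was tested with limma 3.58.1 (R 4.3.3) at an adjusted p of 0.05, after a test on simulated data. P-values measure the spread between these libraries. The genes and lists were chosen with earlier results of these data known. The text names the 9 genes, list genes with a promoter peak in at least 4 libraries or with none, genes sharing a peak, and the 3 genes most similar in covered length to each gene called in at least 4 libraries. Evc, Evc2, Kif7, Boc, Hhatl and Glis3 fell between these limits. Some genes that this rule would name are not reported here.

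Over the 717 regions, WT and KO libraries with the same number deviated together from their group means (r of 0.27, 0.31 and 0.47 across regions, although WT replicate 2 and KO replicate 1 also had an r of 0.27), so replicate numbers were taken as pairs in an alternative with a replicate block. Other alternatives were equal numbers of peaks, peaks above the library median, other windows, overlaps and scalings, the 75 bp libraries alone and leaving out each library.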

Additional observations from a re-analysis of the deposited data

How the results depend on the processing

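Counts of Hedgehog genes depended on how many peaks were kept. Promoter peaks were found for 4.67 of the 9 genes per WT library and 6.33 per KO library (9.02% and 11.1% of all coding genes). With the 1047 strongest peaks of each library, these became 2 and 2 (3.74% and 4.14% of all genes; 0 and 0 in every library of the genotype, 1.26% and 1.92%), and with promoters or bodies 2.33 and 2.33 (4.29% and 4.60%; 1 and 1 in every library, 1.74% and 2.24%). With peaks above the library median they were 2.67 and 3 (5.89% and 7.09%; 0 and 0 in every library, 1.35% and 3.53%), and with promoters or bodies 2.67 and 3.67 (6.66% and 7.91%; 0 and 2 in every library, 1.76% and 4.17%). In the 75 bp libraries alone, 5 genes had a peak in every WT and 8 in every KO library, with or without bodies. Of all genes, 9.75% and 10.8% did for promoters, and 11.3% and 12.4% with bodies. Over all libraries the counts were 1 and 3 for promoters (3.01% and 7.14% of all genes) and 2 and 5 with bodies (3.85% and 8.22%). Leaving out each library gave 3.5 to 6.5 genes per WT library and 5.5 to 8 per KO library, with 1 to 5 and 3 to 8 in every library. With bodies the ranges were 4 to 6.5 and 6.5 to 8, and 2 to 5 and 5 to 8 in every library. The upper ends came from leaving out WT replicate 3 and KO replicate 3. The 26 pathway genes fell from 6.33 and 7.33 per library to 2 and 2 with equal numbers of peaks, which by construction keeps fewer peaks. Leave-one-out ranges were 4.5 to 8.5 and 6.5 to 8.5 for these and 12 to 16 and 15.5 to 17 for the targets.

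Signs of the covered length difference turned for 5 of 8 genes. Shh was -1.75 kb in the 75 bp libraries and -1.66 to 5.44 kb leaving out each library. Ihh was -0.733 kb with equal numbers of peaks, -0.405 kb above the median, -0.419 kb at 75 bp and -2.08 to 2.68 kb leaving out each library (-0.570 kb without KO replicate 1). Dhh ranged from -0.218 to 3.17 kb and Ptch1 from -2.75 to 0.722 kb (0.246 kb without WT replicate 2 and 0.00930 kb without KO replicate 3), with -3.47 kb for Ptch1 above the median and 0 kb with equal numbers of peaks. In the promoter window alone the difference was 0.128 kb for Dhh, 0.530 kb for Shh, 0.436 kb for Ihh, -1.18 kb for Ptch1, 0.0933 kb for Hhip and 0.452 kb for Gli2. Gli1 was 1.32 kb above the median, 0.477 kb at 75 bp and -0.942 to 1.04 kb leaving out each library (0.223 kb without WT replicate 2). Hhip, Gli2 and Gli3 turned under no setting, but with equal numbers of peaks their difference was 0 kb, as it was for Hhip and Gli3 with peaks above the median. Leaving out each library gave 0.0682 kb (without KO replicate 2) to 1.24 kb (without WT replicate 1) for Hhip, 2.03 kb (without WT replicate 1 or 3) to 4.003 kb (without WT replicate 2) for Gli2 and 0.552 kb (without KO replicate 2) to 2.20 kb (without KO replicate 3) for Gli3. Negative values for Shh, Ihh and Dhh appeared without WT replicate 3. The Ihh region turned to -0.18 scaled by total signal, -0.12 by maximum, -0.19 by mean coverage and -0.17 at 75 bp, with -0.40 to 0.33 leaving out each library (-0.07 and -0.04 without KO replicates 1 and 2). The cause of these turns was not tested.

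No setting gave a limma call. With the replicate block the Ihh difference stayed at 0.06 (limma, adjusted p = 0.969), 0 regions passed and 25 were below 0.05 unadjusted. The exact sign-flip test over pairs gave 0.25, its smallest value, for Dhh and Gli2.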
